A study of Mus musculus with 12 samples.

Results

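Vegfa, Vegfb, Vegfc, Vegfd, Angpt1, Angpt2, Apln and Pdgfb encode secreted ligands that act on blood and lymphatic vessels. They were taken by symbol, and all 8 were found among the 78298 genes listed for the hippocampus of male C57BL/6 mice. Poly(A) RNA of 12 libraries was sequenced, 4 per group. The Control group was given saline and had no stress. The Model group was given saline during chronic unpredictable mild stress (1 stressor a day over 28 days, changed each day), which is used as a model of depression. The Treatment group had the same stress and was given poricoic acid A, a compound of Poria cocos, as a daily oral gavage of 20 mg/kg from day 15 for 14 days. All mice were bought at 6 to 8 weeks of age and were chosen for their preference for sucrose. In this bulk tissue, fewer cells of a type and less RNA per cell cannot be told apart.

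The members of the VEGF family bind receptor tyrosine kinases on endothelial cells: VEGFA acts on FLT1 and KDR, VEGFB on FLT1, and VEGFC and VEGFD on FLT4, with the neuropilins as co-receptors. Angiopoietins act on the receptor TEK, ANGPT1 as an activator made by cells around the vessel and ANGPT2 as a context-dependent antagonist made by the endothelium. Apelin, from Apln, acts on the receptor APLNR, and PDGFB from endothelial cells recruits pericytes through PDGFRB. In adult brain VEGFA is made by neurons and glia and serves both vessels and neurons.

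Vegfa and Vegfb were higher in Treatment than in Model, 1.28-fold each, and were the members that passed the test in any of the 3 comparisons. No other member passed there, and no member passed between Model and Control or between Treatment and Control. Of the 10 receptors tested, Nrp1, a co-receptor of VEGFA and a semaphorin receptor of neurons, fell in Treatment against Model. Of 16 endothelial markers 3 rose in the same comparison, in which 1.18% of all genes were called higher. Members and lists were chosen with earlier results of these data known, so such counts are a description, and no test over a list was run.

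The sequence before the start of Vegfa and of Vegfb is shown because these members rose together. The window is the 250 bases before the start of a RefSeq transcript in the build GRCm38.p6, which is an earlier build than that of the deposited table. Of the 8 members, 5 had an entry in that table, matched by symbol. Vegfa lies at chr17:46032378-46032627 and Vegfb at chr19:6987652-6987901, both on the minus strand. Capitals mark the GC box GGGCGG and its reverse complement CCGCCC, the binding letters of SP1-type factors.
Vegfa: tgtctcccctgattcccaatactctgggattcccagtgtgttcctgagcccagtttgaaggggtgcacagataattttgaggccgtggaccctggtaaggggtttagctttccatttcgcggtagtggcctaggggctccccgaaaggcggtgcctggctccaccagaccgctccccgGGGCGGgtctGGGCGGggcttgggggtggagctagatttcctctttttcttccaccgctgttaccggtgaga
Vegfb: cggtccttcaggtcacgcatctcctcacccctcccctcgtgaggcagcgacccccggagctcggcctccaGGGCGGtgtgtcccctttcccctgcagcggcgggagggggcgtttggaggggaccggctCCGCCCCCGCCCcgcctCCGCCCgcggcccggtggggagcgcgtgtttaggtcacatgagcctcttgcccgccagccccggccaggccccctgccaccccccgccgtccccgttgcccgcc
The Vegfa window held 2 matches of the GC box and the Vegfb window 4, and 32.7% of all 32851 promoter windows of this length held at least 1. The letters ACGTG, a form of the core of the hypoxia response element, or the reverse complement CACGT were in neither window and in 16.6% of all windows. The other form, GCGTG or its reverse complement CACGC, was not counted, and both of these are seen in the Vegfb window above. Sequence further upstream was not searched, so the windows cannot show that either gene lacks the element. The GC content was 59.2% before Vegfa and 76.4% before Vegfb, against a median of 52.4% over all windows. Vegfa has a second, internal start in the same table, whose window held 1 match of ACGTG and 1 of the GC box. Among the members that were not called, the GC box had 2 matches before Vegfc, 1 before Apln and 0 before Vegfd. Angpt1, Angpt2 and Pdgfb had no entry. A link of the GC box to the differences between groups was not tested.

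In the coordinates of the deposited table, with the build GRCm39 per the submitters' processing notes, the gene Vegfa (ENSMUSG00000023951) spans chr17:46327919-46342741. Vegfb (ENSMUSG00000024962) spans chr19:6959841-6964997. Vegfc lies at chr8:54530641-54640131 and Angpt2 at chr8:18740279-18791578, while Vegfd lies at chrX:163156374-163185646 and Apln at chrX:47114023-47123730. Angpt1 spans chr15:42288119-42540373 and Pdgfb chr15:79880075-79899009. All 8 are annotated as protein-coding.

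Library totals ran from 17083260 to 27479083 estimated counts, and the biological coefficient of variation over the 18600 genes tested was 10.7%. In Control, Prox1, the transcription factor of dentate granule cells, stood at 135 ± 15.7 CPM. Snap25, a neuronal protein of synaptic vesicle fusion, stood at 1707 ± 65.9 CPM there (SD, n = 4 each). CPM here is the count divided by the scaled library total. Choroid plexus RNA differed between libraries: its 16 markers summed to 1897, 2352, 2543 and 773 CPM in the Control libraries, to between 649 and 938 CPM in Model, and to between 509 and 1567 CPM in Treatment. All libraries carry the batch label 1. The names of Treatment replicates 2 and 3 (1631 and 1636) stand apart from those of the other 10, which run from 1868 to 1898. The labels give 4 mice per group without tying each library to 1 animal, so the p-values reflect only the spread among these libraries, which may be technical.

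Per length, the ligands differed widely on the deposited FPKM scale. Vegfb stood highest at 45.8 ± 6.27 FPKM and Vegfa next at 34.7 ± 4.71 (SD over 12 libraries). Their ranges overlapped, 37.8 to 57.2 for Vegfb and 27.9 to 43.2 for Vegfa, although Vegfb was above Vegfa in each of the 12 libraries. Pdgfb followed at 9.60 ± 1.33 FPKM and Apln at 7.13 ± 1.11, with overlapping ranges and Pdgfb above Apln in 11 libraries. Angpt1 stood at 2.04 ± 0.247 FPKM, below every Apln value. Vegfd (1.36 ± 0.468) and Vegfc (1.14 ± 0.366) did not differ beyond their spread: Vegfd was above Vegfc in 6 of 12 libraries. Angpt2 was lowest at 0.439 ± 0.209 FPKM, below Vegfc in each library, and its counts were 15 to 41 per library.

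**Figure D1:**
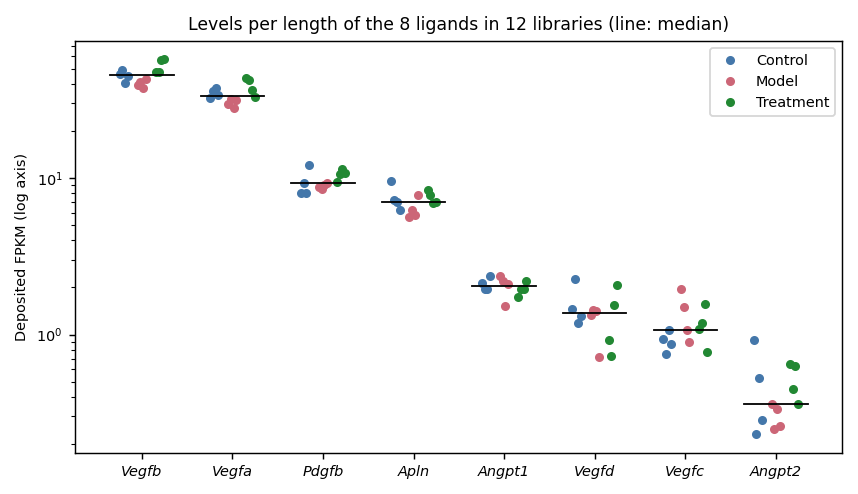
Deposited FPKM of the 8 ligands on a log axis, 1 point per library coloured by group, with the median of 12 libraries as a line. Vegfb and Vegfa stand above the rest, with no Vegfa value below 27.9, and Vegfd and Vegfc overlap.

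FPKM depends on the transcript length that the estimation assigned, and for some ligands that length varied between libraries. Dividing counts by FPKM and by the library total gives the implied length. For Angpt1 and Apln it varied by a factor of 1.01 and 1.02 between the shortest and the longest library, and for Vegfb by 1.06. For Vegfa it ran from 1437 bases in Control replicate 3 to 1796 bases in Control replicate 1, a factor of 1.25, against a median factor of 1.15 over 18320 genes. For Vegfc it was 2158 to 2201 bases in 8 libraries but 927, 1846, 1642 and 1502 bases in Model replicates 1 and 2 and Treatment replicates 2 and 3. The Vegfc level of 1.97 FPKM in Model replicate 1, the highest of the 12, thus came from 41.0 counts, while Control replicate 1 gave 0.942 FPKM from 42.0 counts. Angpt2 behaved likewise, with implied lengths of 1410 to 3318 bases. Changes between groups are therefore given from counts, and the FPKM fit stands as an alternative.

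**Figure D2:**
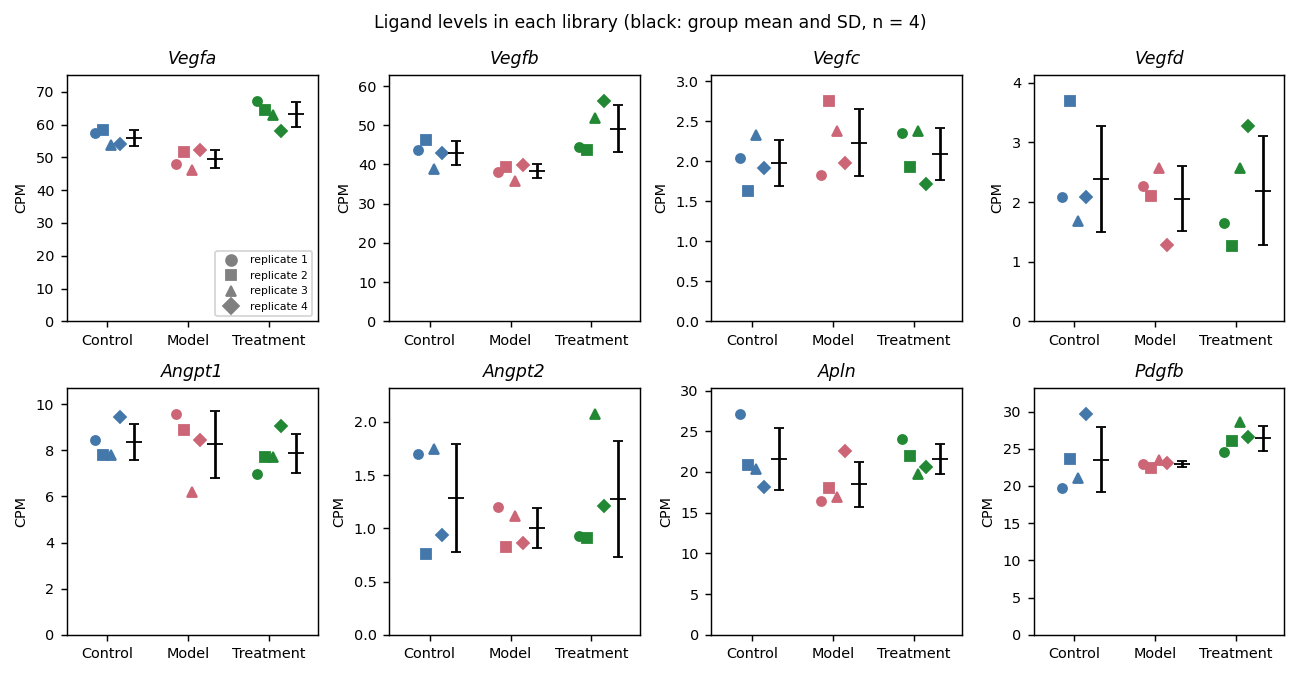
CPM of the 8 ligands in each library by group, with the replicate as marker shape and the group mean and SD (n = 4) in black, each axis starting at 0. The Treatment points of Vegfa and Vegfb all lie above the Model points, and the points of Vegfc, Vegfd, Angpt1 and Angpt2 overlap in all groups.

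Vegfa, the main growth factor of endothelial cells, had a level of 57.3, 58.4, 53.7 and 54.1 CPM in the Control libraries, in the order of replicates 1 to 4 used throughout. In Model it stood at 47.9, 51.5, 46.3 and 52.3 CPM, and in Treatment at 67.2, 64.5, 62.9 and 58.1 CPM. All Model libraries were below all Control libraries, and all Treatment libraries were above all Model libraries. Treatment and Control overlapped through 1 Treatment library, replicate 4. The difference of Treatment from Model was 0.35 ± 0.06 on the log2 scale (fold 1.28, 95% confidence interval 1.16 to 1.40), adjusted p = 0.0179 in edgeR's quasi-likelihood test over all genes. Model against Control gave -0.18 ± 0.06, adjusted p = 0.182, and Treatment against Control 0.17 ± 0.06, adjusted p = 0.222. The Model libraries enter both the first and the second of these comparisons. With the score of choroid plexus markers in the fit, Model against Control gave -0.15 (adjusted p = 0.625).

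Vegfb, a ligand of FLT1 linked to lipid uptake and to survival of neurons and vessels, stood at 43.8, 46.2, 38.8 and 43.0 CPM in Control. It stood at 38.2, 39.4, 35.7 and 39.8 CPM in Model and at 44.4, 43.8, 51.9 and 56.2 CPM in Treatment. The Treatment libraries were above all Model libraries, and Control overlapped with both. Treatment differed from Model by 0.36 ± 0.08 (fold 1.28, 95% confidence interval 1.14 to 1.45), adjusted p = 0.0385. Model against Control gave -0.17 ± 0.08, adjusted p = 0.342, and Treatment against Control 0.19 ± 0.08, adjusted p = 0.318. Within Treatment the order differed between both ligands: replicates 1 and 2 were highest for Vegfa and lowest for Vegfb.

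In Treatment against Model 2 of 8 members were called higher and 0 lower in edgeR, where 1.18% of the 18600 genes were called higher and 0.704% lower. DESeq2 also called 2 higher, and it called 1099 of all genes in either direction. It called 692 of all genes in Model against Control and 440 in Treatment against Control. In Model against Control 0 of 8 passed in edgeR (1 at an unadjusted p under 0.05, as were 15.6% of all genes, and 0 in DESeq2). Of all genes 0.79% passed in that comparison, 0.339% higher and 0.452% lower. In Treatment against Control 0 of 8 passed (2 at an unadjusted p under 0.05, as were 13.9% of all genes, and 0 in DESeq2). Of all genes 0.102% passed, 0.0645% higher and 0.0376% lower. DESeq2 gave no adjusted p for 3 of the 8 members. The groups did not overlap for 3 members in Treatment against Model, all higher, as for 9.5% of all genes (5.14% higher and 4.36% lower). They did not overlap for 1 member in Model against Control, which was lower, as for 11.4% of all genes (5.46% lower and 5.95% higher). They overlapped for every member in Treatment against Control, where 7.24% of all genes did not overlap (3.99% higher and 3.24% lower). The difference was positive for 1 of 8 members in Model against Control (47.3% of all genes), for 6 in Treatment against Model (50.4%) and for 6 in Treatment against Control (47.9%). The median log2 fold change of the 8 members was -0.17 in Model against Control, 0.21 in Treatment against Model and 0.05 in Treatment against Control. The medians of all genes were -0.01, 0.0018 and -0.0076. Because the members were chosen with earlier results of these data known, these shares and medians are a description only.

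The Vegfa and Vegfb calls depended on single libraries. In the 12 fits that each left out 1 library, Vegfa stayed between 0.32 and 0.39 and passed in 9. It did not pass without Model replicate 2 (adjusted p = 0.0748), Model replicate 3 (0.0778) or Treatment replicate 2 (0.0530). Vegfb stayed between 0.29 and 0.41 and passed in 3. It did not pass without Control replicates 1 (0.0538) or 4 (0.0604), any Model replicate (0.0606 to 0.132), or Treatment replicates 2 (0.0530), 3 (0.0631) or 4 (0.0971). Without Treatment replicates 2 and 3 together the differences were 0.34 for Vegfa (adjusted p = 0.0662) and 0.39 for Vegfb (adjusted p = 0.0750). A two-sided exact permutation test was also run on each gene's own mean log2 CPM, with 70 arrangements: Vegfa, Vegfb and Pdgfb each gave p = 0.0286 in Treatment against Model. That is the smallest p possible, and it was 0.171 when adjusted over the 24 tests of 8 members in 3 comparisons.

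**Figure D3:**
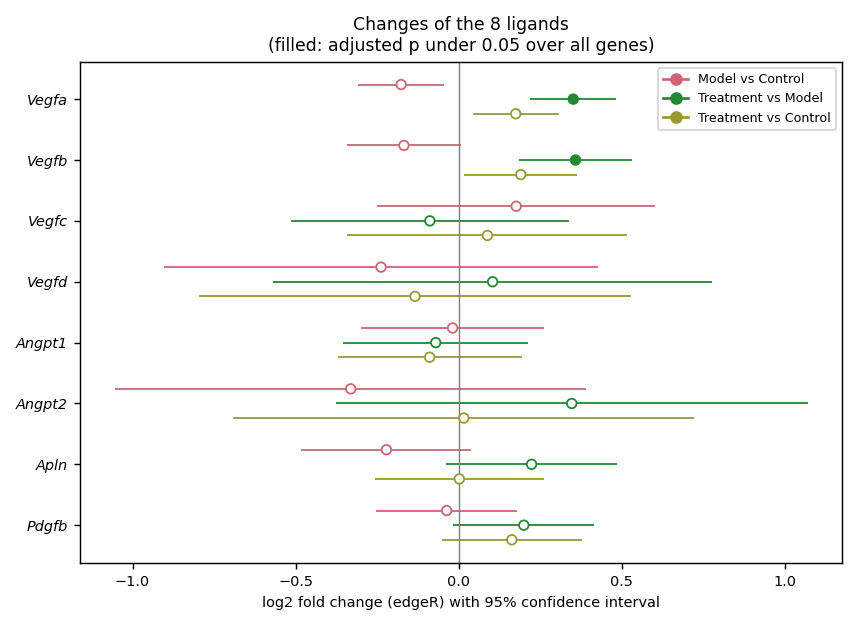
Log2 fold changes of the 8 ligands in 3 comparisons with 95% confidence intervals from edgeR, filled where the adjusted p over all genes is under 0.05. The Treatment vs Model changes of Vegfa (0.35) and Vegfb (0.36) are filled, and those of Vegfd and Angpt2 have the widest intervals.

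Pdgfb, the endothelial ligand that holds pericytes to the vessel, stood at 19.7, 23.7, 21.1 and 29.6 CPM in Control. It stood at 23.0, 22.5, 23.5 and 23.0 CPM in Model, the narrowest group, and at 24.6, 26.0, 28.6 and 26.5 CPM in Treatment. Treatment lay above Model without overlap, by 0.20 ± 0.10 (fold 1.15, 95% confidence interval 0.989 to 1.33), but did not pass (adjusted p = 0.309). Treatment against Control gave 0.16 ± 0.10, adjusted p = 0.509, and Model against Control -0.04 ± 0.10, adjusted p = 0.907.

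Apln, the gene of apelin, which is high in sprouting endothelial cells, stood at 27.1, 20.8, 20.3 and 18.2 CPM in Control, with replicate 1 high. It stood at 16.4, 18.0, 16.9 and 22.6 CPM in Model and at 24.1, 21.9, 19.7 and 20.6 CPM in Treatment. Model overlapped with Control and with Treatment through its replicate 4, and Control overlapped with Treatment. Model against Control gave -0.22 ± 0.12 (adjusted p = 0.411), and -0.09 without Control replicate 1. Treatment against Model gave 0.22 ± 0.12 (fold 1.17, 95% confidence interval 0.974 to 1.40, adjusted p = 0.351). Treatment against Control gave 0.0021 ± 0.12, adjusted p = 0.997.

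The angiopoietins did not differ beyond their spread. Angpt1 lay between 7.78 and 9.44 CPM in Control, 6.20 and 9.56 CPM in Model, and 6.97 and 9.05 CPM in Treatment. Its differences were -0.02 ± 0.13 for Model against Control (adjusted p = 0.967) and -0.07 ± 0.13 for Treatment against Model (adjusted p = 0.838). The 95% confidence interval of the latter, as a fold, was 0.783 to 1.16. Angpt2 lay between 0.760 and 1.75 CPM in Control, 0.826 and 1.20 CPM in Model, and 0.912 and 2.07 CPM in Treatment. Its differences were -0.33 ± 0.34 (adjusted p = 0.699) and 0.35 ± 0.34 (adjusted p = 0.649), so that at these counts the interval for Treatment against Model, 0.770-fold to 2.10-fold, includes a change the size of that of Vegfa.

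The lymphatic ligands were likewise scarce. Vegfc, which drives the growth of lymphatic vessels, had 38.0 to 50.9 counts per library and lay between 1.63 and 2.75 CPM, with overlap of all groups. It was the 1 member with a positive difference in Model against Control (0.18 ± 0.20, adjusted p = 0.731), and Treatment against Model gave -0.09 ± 0.20 (adjusted p = 0.868). Vegfd, a second ligand of FLT4, had 25.0 to 102 counts and lay between 1.27 and 3.69 CPM. Its Control level of 2.39 ± 0.889 CPM and its Treatment level of 2.19 ± 0.909 CPM (SD, n = 4 each) had the widest spreads relative to their means among the VEGF genes. Vegfd differed by -0.24 ± 0.31 in Model against Control (adjusted p = 0.776) and by 0.10 ± 0.32 in Treatment against Model (adjusted p = 0.907).

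The receptors of these ligands were 11, of which 10 were tested. Aplnr, the apelin receptor, had 3 to 12 counts per library and did not pass the count filter. In Treatment against Model 0 receptors rose, 1 fell and 9 did not pass (8 of the 10 at an unadjusted p under 0.05, as were 18.5% of all genes), and 1.88% of all genes were called in either direction. Their median was 0.22, with 7 positive and 3 negative, against 0.0018 for all genes. DESeq2 called 3 higher, Tek, Tie1 and Pdgfrb, and 1 lower, where it called 1099 of all 18600 genes in either direction. In Model against Control and in Treatment against Control 0 of 10 passed in edgeR. At an unadjusted p under 0.05 there were 2 of 10 in the former, with 15.6% of all genes, and 6 of 10 in the latter, with 13.9% of all genes. DESeq2 called 1 lower in the former and 2 higher in the latter, where it called 692 and 440 of all genes in either direction.

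Nrp1 was the receptor that fell. It stood at 51.0, 57.4, 60.0 and 56.6 CPM in Control, at 62.2, 62.8, 68.4 and 56.1 CPM in Model, and at 50.2, 50.6, 43.2 and 46.7 CPM in Treatment. Treatment lay below both other groups without overlap. The difference from Model was -0.39 ± 0.07 (fold 0.765), adjusted p = 0.0227, and that from Control -0.24 ± 0.07, adjusted p = 0.167. Without Model replicates 2 or 3 or Treatment replicate 4 the former did not pass (adjusted p = 0.0884, 0.0853 and 0.0560). Nrp2, its paralog, went from 91.8 ± 11.6 CPM in Model to 75.8 ± 10.8 CPM in Treatment with overlap (-0.28 ± 0.10, adjusted p = 0.157). Markers of dentate granule cells were lower in the same libraries: 5 of 8 fell, where 0.704% of all genes were called lower, with a median of -0.41 against 0.0018 for all genes. Among them were Trpc6 (-0.58 ± 0.10, adjusted p = 0.0174), Sema5a (-0.49 ± 0.10, adjusted p = 0.0259) and C1ql3 (-0.30 ± 0.06, adjusted p = 0.0305). Their summed level was 611 to 741 CPM in Control, 701 to 850 CPM in Model and 552 to 585 CPM in Treatment, and their part in the Nrp1 difference was not tested. When 1 library was left out, the call held in 10 of 12 fits for Trpc6 and in 9 each for Sema5a and C1ql3.

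The receptor kinases of the VEGF family did not pass in Treatment against Model. Flt1, the receptor of VEGFA and VEGFB, stood at 37.8, 43.4, 37.3 and 46.7 CPM in Control, at 52.7, 48.7, 47.8 and 42.8 CPM in Model, and at 59.3, 65.3, 48.5 and 52.3 CPM in Treatment. Treatment lay above Control without overlap (0.45 ± 0.10, adjusted p = 0.0891), and against Model the difference was 0.23 ± 0.10 (adjusted p = 0.216). Kdr, the main signalling receptor of VEGFA, stood at 12.3 ± 1.75 CPM in Model and 12.7 ± 0.847 CPM in Treatment (0.04 ± 0.12, adjusted p = 0.891). Flt4, the receptor of VEGFC and VEGFD, stood at 2.93 ± 0.589 and 2.89 ± 0.702 CPM (-0.03 ± 0.22, adjusted p = 0.965).

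Tek, the angiopoietin receptor, went from 10.1 ± 1.96 CPM in Model to 13.9 ± 1.66 CPM in Treatment (0.45 ± 0.13, adjusted p = 0.0865). Tie1, its partner, went from 6.87 ± 1.03 to 9.89 ± 1.13 CPM without overlap (0.53 ± 0.15, adjusted p = 0.0824). Ptprb, the phosphatase that acts on TEK, went from 34.5 ± 2.25 to 41.2 ± 7.51 CPM (0.26 ± 0.10, adjusted p = 0.197). For the PDGF receptors, Pdgfrb of pericytes went from 22.2 ± 1.05 to 26.5 ± 1.69 CPM without overlap (0.26 ± 0.07, adjusted p = 0.0573). Pdgfra, which marks oligodendrocyte precursors, went from 58.6 ± 0.730 to 67.8 ± 5.60 CPM without overlap (0.21 ± 0.08, adjusted p = 0.148).

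**Figure D4:**
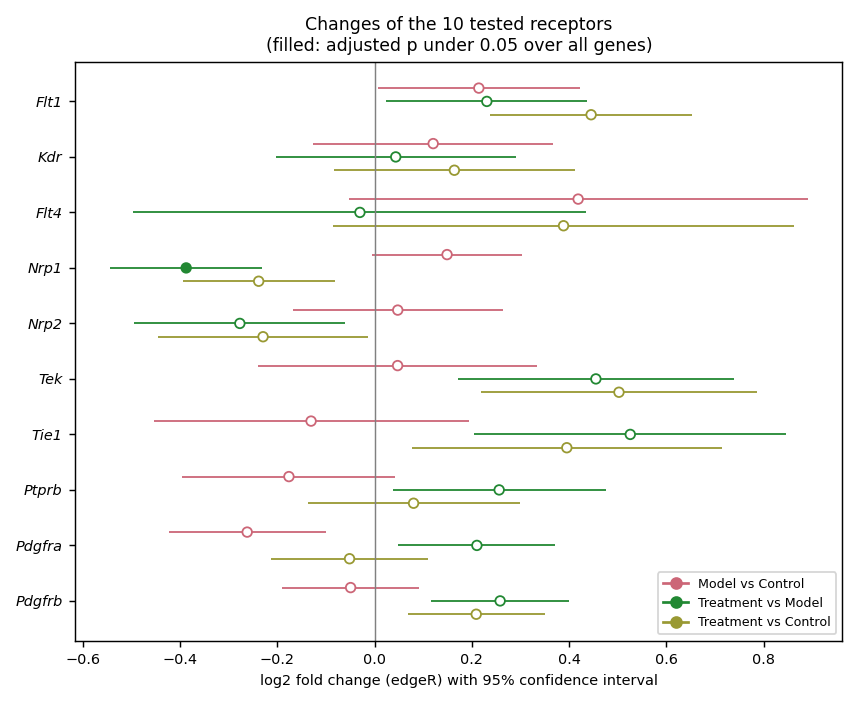
Log2 fold changes of the 10 tested receptors in 3 comparisons with 95% confidence intervals from edgeR, filled where the adjusted p over all genes is under 0.05. The Treatment vs Model change of Nrp1 (-0.39) is the filled one, and those of Tek (0.45) and Tie1 (0.53) are open.

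Markers of the vessel wall were read in the same libraries. Of 16 endothelial markers 3 rose in Treatment against Model in edgeR, 0 fell and 13 did not pass, where edgeR called 1.18% of all genes higher. At an unadjusted p under 0.05 there were 13 of the 16, with 18.5% of all genes. The difference was positive for 15 and negative for 1, and the groups did not overlap for 9, as for 9.5% of all genes. Their median was 0.34 against 0.0018 for all genes. DESeq2 called 6 of the 16 higher, and it called 1099 of all 18600 genes in either direction. Pecam1, an adhesion molecule, went from 13.1 ± 1.01 to 19.4 ± 2.79 CPM (0.57 ± 0.11, adjusted p = 0.0256). Slco1a4, a transporter of the blood-brain barrier, rose by 0.39 ± 0.08 (adjusted p = 0.0246) and Slc7a5, an amino acid transporter, by 0.31 ± 0.07 (adjusted p = 0.0370). Cldn5, the tight junction protein of the same barrier, stood at 19.2 ± 1.98 CPM in Model and 19.8 ± 3.85 CPM in Treatment. The summed level of the list was 269 to 298 CPM in Control, 262 to 297 CPM in Model and 327 to 363 CPM in Treatment. Of 12 markers of pericytes and smooth muscle 0 passed in edgeR and 2 in DESeq2. At an unadjusted p under 0.05 there were 7, with 18.5% of all genes. Their median was 0.30, and their summed level was 196 to 204 CPM in Model and 229 to 256 CPM in Treatment. Of 7 markers of tip cells and veins 0 passed in edgeR or DESeq2, and 1 had an unadjusted p under 0.05. Their median was 0.15, with 5 positive and 2 negative. Their summed level overlapped, at 92.2 to 102 CPM in Model and 92.2 to 111 CPM in Treatment. Of 10 astrocyte markers 1 rose, Aldh1l1, a folate enzyme (0.32 ± 0.07, adjusted p = 0.0398), and the list had a median of -0.03. Of 8 oligodendrocyte markers 1 rose, Olig1 (0.30 ± 0.07, adjusted p = 0.0446). Of 9 markers of the CA fields 1 fell, Cpne4 (-0.33 ± 0.07, adjusted p = 0.0363), where 0.704% of all genes were called lower. When 1 library was left out, the call held in 2 of 12 fits for Olig1, in 4 each for Aldh1l1 and Slc7a5, in 5 for Cpne4, and in 9 each for Pecam1 and Slco1a4. The part of these marker differences in those of Vegfa and Vegfb was not tested.

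A score was formed for each list as the mean log2 CPM of its genes, centred over the 12 libraries. The endothelial score ran from 0.13 to 0.30 in Treatment, from -0.15 to -0.05 in Control and from -0.16 to -0.07 in Model. With this score as a covariate, a fit added after seeing the data, 0 genes passed in Treatment against Model. Vegfa then differed by 0.30 and Vegfb by 0.56 (adjusted p = 0.999911 each). Because Treatment does not overlap with the other groups in this score, the score and the group cannot be told apart. With the score of choroid plexus markers in the fit instead, Vegfa differed by 0.35 (adjusted p = 0.0222) and Vegfb by 0.36 (adjusted p = 0.0401).

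**Figure D5:**
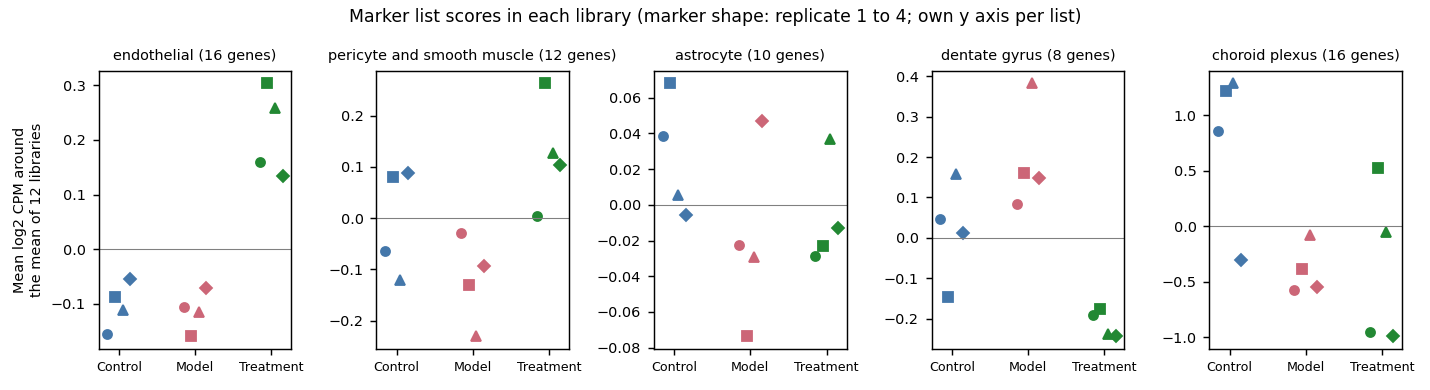
Score of 5 marker lists in each library by group, as mean log2 CPM around the mean of 12 libraries, with its own axis per list and the replicate as marker shape. The endothelial scores of Treatment (0.13 to 0.30) lie above all others, the dentate gyrus scores of Treatment lie below all others, and the choroid plexus scores are high in Control replicates 1 to 3.

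Genes around the ligands were described from 3 further lists. Of 22 other ligands of vessel growth 19 were tested and 0 passed in edgeR in any comparison. In Treatment against Model 6 of the 19 had an unadjusted p under 0.05, as had 18.5% of all genes. The same share applies to the counts of this comparison that follow. DESeq2 called 1 lower, and the median was 0.22. Of 14 inhibitors of vessel growth or of its signalling 0 passed (3 at an unadjusted p under 0.05, 0 in DESeq2), with a median of 0.01. Of 20 targets and regulators of the hypoxia response, the best known inducer of Vegfa, 0 passed in Treatment against Model (2 at an unadjusted p under 0.05, 0 in DESeq2), with a median of -0.04 and 9 positive. Hif1a, the gene of the oxygen-regulated subunit of the factor, stood at 81.4 ± 4.63 CPM in Model and 80.2 ± 4.01 CPM in Treatment. These are RNA levels and not protein levels. A part of the hypoxia response in the Vegfa difference was not tested. In Model against Control 1 of the 20 rose, where 0.339% of all genes were called higher. It was Pfkfb3, a regulator of glycolysis (0.36 ± 0.07, adjusted p = 0.0316), which went from 36.9 ± 2.50 to 47.2 ± 3.42 CPM. That call held in 6 of 12 fits that left out 1 library.

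Among the 13666 named genes of at least 1 CPM, those whose log2 CPM followed a member most closely over the 12 libraries were found by Pearson's r, which is a description of these libraries and includes the group differences. For Vegfa they were Sema6a (r = 0.94), a semaphorin, and Dnase2a (r = 0.93), a lysosomal nuclease. For Vegfb they were Shisa4 (r = 0.95) and Arl2bp (r = 0.94). For Pdgfb they were Carmil2 (r = 0.94) and Plpp7 (r = 0.90), and for Apln Phlda3 (r = 0.89) and Nr1d2 (r = 0.87), a repressor of the circadian clock. For Angpt1 they were Cdh18 (r = 0.87) and Aldh1a2 (r = 0.85), and for Angpt2 P2rx3 (r = 0.86) and Gsta4 (r = 0.82). For Vegfc they were Tmem114 (r = 0.86) and Cyb561d1 (r = 0.85), and for Vegfd Gipc3 (r = 0.91) and Amz1 (r = 0.88). Among the members themselves the highest values were those of Vegfa with Vegfb (r = 0.69) and Vegfa with Apln (r = 0.66), and the lowest was that of Angpt1 with Vegfc (r = -0.38).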

How the data were processed

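The deposited table gives an estimated count and an FPKM value per gene for each of 12 libraries. The submitters' processing notes list STAR 2.7.10a, Salmon 1.10.1, Trim Galore 0.6.7, FastQC 0.12.1 and cutadapt 3.4, and the builds mm39 and GRCm39. The roles, annotation release and filters are not given in the sources used here. The estimated counts were not scaled by the authors (28.8% of nonzero values are not whole within 1e-06). The deposited FPKM values were scaled by the authors for length and library total.

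Counts were rounded and fitted in R 4.3.3 with edgeR 4.0.16 (filterByExpr, TMM, quasi-likelihood, 1 mean per group over 12 libraries), which left 18600 genes. The call threshold was 0.05 for the p adjusted by Benjamini-Hochberg across the tested genes. Changes are log2 fold changes ± SE, and levels are CPM ± SD. DESeq2 1.42.0 and limma 3.58.1 (FPKM of at least 0.5 in 4 libraries, pseudocounts of 0.1 and 1) served as alternatives, with others of scaling, filter, samples, block and covariate. A prior count of 2 was used for the log2 CPM in scores and correlations. Data for Treatment against Model (18600 genes) were simulated in a single draw, in which 18400 unchanged genes had equal means in all groups. Of 100 genes changed by 0.35 there were 21 calls, and of 100 changed by 0.8 there were 54. Next to these stood 9 false calls among the unchanged genes. Of the genes changed by 0.35 with at least 10 CPM, 40.4% were called. The real data need not match this setting, so these values are no error rate for the calls above.

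Members and gene lists were chosen with earlier results of these data known. Named genes are all members and receptors and the 2 genes most correlated with each member. From the other lists only some of the called genes and first markers are named. In Model against Control, Nid2, Itm2a, Sostdc1, Igf2, Hbb-bt and Opalin were also called lower. They are markers of tip cells and veins, endothelium, choroid plexus, leptomeninges, red blood cells and oligodendrocytes, in that order. Trpc6 was called higher in that comparison. Hif1a and Calb1 were chosen after their values were seen.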

Additional observations from a re-analysis of the deposited data

How the results depend on the processing

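In Model against Control 0 members passed in any alternative, and so in Treatment against Control. In Treatment against Model the 2 member calls became 1 with only the 8 libraries compared, 0 without Treatment replicates 2 and 3 together, 0 with FPKM values at either pseudocount and 0 with the endothelial score, and lay between 0 and 2 when 1 library was left out. Vegfa and Vegfb kept their direction in all 23 alternatives of each comparison.

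The 147 genes called in Model against Control became 692 in DESeq2, 783 without a filter, 452 with only the 8 libraries, 284 without Treatment replicates 2 and 3, 228 with a replicate block, 4 and 5 with FPKM (pseudocounts 0.1 and 1), 2 with the choroid plexus score and 92 with the endothelial score. Leaving out 1 library gave 8 (without Control replicates 1 or 2) to 273 (without Treatment replicate 3). The 350 genes of Treatment against Model became 1099 in DESeq2, 1090 without a filter, 137 with only the 8 libraries, 132 without Treatment replicates 2 and 3, 0 and 2 with FPKM and 0 with the endothelial score; leaving out 1 library gave 0 (without Model replicates 2 or 3) to 459. The 19 genes of Treatment against Control became 12 with RLE scaling, 440 in DESeq2, 748 without a filter, 2 with only the 8 libraries, 130 without Treatment replicates 2 and 3, 118 with a replicate block, 0 with FPKM at both pseudocounts and 0 with either score. Leaving out 1 library gave 0 (without Control replicate 1) to 73 (without Treatment replicate 3). The causes were not tested.

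The correlations between deviations of same-numbered samples lay within the range of those of other pairs, and their averages were not compared. Same-numbered pairs gave -0.04 to 0.11 (1 of 12 over 0.1), against -0.14 to 0.15 for pairs of different number (2 of 36 over 0.1). These values cannot show whether same-numbered samples shared a step of handling. With the replicate block Vegfa differed by 0.35 (adjusted p = 0.0152) and Vegfb by 0.36 (adjusted p = 0.0431) in Treatment against Model, and 431 genes passed.

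Signs turned, among members and receptors that had not passed, when 1 library was left out. In Model against Control the values then ran from -0.36 to 0.066 for Vegfd, -0.093 to 0.10 for Angpt1 and -0.11 to 0.099 for Pdgfb. In Treatment against Model they ran from -0.18 to 0.020 for Vegfc, -0.16 to 0.29 for Vegfd, -0.18 to 0.0027 for Angpt1, -0.015 to 0.14 for Kdr and -0.20 to 0.084 for Flt4. In Treatment against Control they ran from -0.00059 to 0.19 for Vegfc, -0.39 to 0.16 for Vegfd, -0.31 to 0.20 for Angpt2 and -0.075 to 0.13 for Apln. Without Treatment replicates 2 and 3, Treatment against Control gave 0.035 for Vegfd and -0.24 for Angpt2. With the endothelial score, which was added after seeing the data, it gave 0.86 for Vegfd and -0.28 for Pdgfb. Treatment against Model then gave 0.22 for Vegfc, -0.27 for Pdgfb, -0.0072 for Tek, -0.034 for Ptprb, -0.094 for Pdgfrb, -0.075 for Flt1, -0.079 for Kdr, -0.21 for Pecam1, 0.069 for Calb1, a dentate gyrus marker, and -0.15 for Olig1; the last 3 had passed without it. Pecam1 is itself part of the endothelial score. That score cannot be told apart from the Treatment group, so the sign turns under it say nothing about the stability of the calls. Counts of 15 to 102 per library limit what could be seen for Angpt2, Vegfc and Vegfd.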
